A study of Mus musculus with 14 samples.

Results

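Cadherins are calcium-dependent adhesion molecules that hold cells together through repeated extracellular domains. Classical cadherins bind like molecules on the neighbouring cell and are tied to the actin cytoskeleton inside the cell by catenins. Type I members such as N-cadherin are expressed broadly, whereas type II members are expressed in combinations that differ between neuron classes and cortical areas. Non-clustered protocadherins of the delta-1 and delta-2 groups take part in axon growth and synapse formation. The giant cadherins Fat and Dchs form receptor and ligand pairs in tissue polarity, and the Celsr proteins are seven-pass cadherins of planar cell polarity that guide axon tracts.

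The genes described here are the classical cadherins (Cdh), the protocadherins that lie outside the clustered loci, and the Fat, Dchs and Celsr genes. They were taken by gene symbol from both expression tables, which gave 43 of the 24444 listed genes. By family these were 5 type I cadherins, 13 type II cadherins, 5 other cadherins, 4 delta-1, 5 delta-2 and 3 other protocadherins, 4 Fat genes, 1 Dchs gene and 3 Celsr genes.

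Polyadenylated RNA of mouse cortex was sequenced in 2 models of the microRNA family miR-29, which lowers transcripts that carry a match to its seed. The miR29Nestin mice (n = 3) carried floxed alleles of both miR-29 clusters, miR-29ab1 and miR-29b2c, deleted by Nestin-Cre, which acts in neural progenitors. Whether vessels, microglia and meninges kept the clusters was not measured. The miR29Nestin mice were compared at postnatal day 40 with miR29WT mice (n = 3), whose floxed or Cre alleles the labels do not give. The Dnmt3a-mi5 mice (n = 4) carried a CRISPR/Cas9 knock-in by which Dnmt3a, a DNA methyltransferase gene, lost 5 UTR sites for miR-29 while miR-29 itself stayed intact, and were compared at 4.5 months with Dnmt3a-WT mice (n = 4). The labels do not give the sex of the mice or say whether each library came from a separate litter, so p-values measure the spread between these libraries.

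The mature miR-29 sequences deleted in the first model are shown because their common seed, in capitals, defines the site looked for in every transcript below. They are from RefSeq (GRCm38.p6).
mmu-miR-29a-3p: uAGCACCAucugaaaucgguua
mmu-miR-29b-3p: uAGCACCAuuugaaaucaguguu
mmu-miR-29c-3p: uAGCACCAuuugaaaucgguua

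Of the 43 genes, 4 carried the matching 7 letters TGGTGCT in their longest annotated 3′ UTR (GENCODE M21, GRCm38, transcript strand), with 5 matches in all. This is 9.30% of the genes, against 16.7% of the tested genes with a UTR (1925 of 11561). The windows below, with the match in capitals, are those of Cdh3 (chr8:106557090-106557096), Cdh4 (chr2:179897973-179897979), Cdh12 (chr15:21589081-21589087) and Pcdh17 (chr14:84535509-84535515 and chr14:84536452-84536458), all on the plus strand. In none was the match followed by an A, the letter that makes the longer 8-letter match.
Cdh3: acgtgtataccTGGTGCTccttttgccca
Cdh4: aacaattcgggTGGTGCTgagcttggcat
Cdh12: aggagatccttTGGTGCTtataattagag
Pcdh17, upstream site: cttggaaaatgTGGTGCTgagttaaataa
Pcdh17, downstream site: acacagaactcTGGTGCTtggcttccaag

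Values are given as normalised counts recovered from the deposited variance-stabilised log2 values, and differences (mutant minus wild type) on that log2 scale, which understates the change of genes with few counts. Reads assigned to genes came to 11.9 to 13.1 M per miR29Nestin library and 9.17 to 14.4 M per miR29WT library, while the depth of the Dnmt3a-mi5 and Dnmt3a-WT libraries is unknown. The check of the genotypes, Dnmt3a itself, stood at 5275 to 5859 normalised counts in miR29Nestin libraries against 1605 to 1724 in miR29WT libraries, and at 1948 to 2249 in Dnmt3a-mi5 libraries against 1062 to 1234 in Dnmt3a-WT libraries. By Y-linked transcripts 2 of 3 miR29Nestin and 1 of 3 miR29WT libraries were from females. In the Dnmt3a table the mean of 4 libraries (Dnmt3a-mi5 1 and 2, Dnmt3a-WT 1 and 2) equals that of the other 4 for every gene, as values do once an effect between such sets has been removed. In these 4 libraries the Y-linked Kdm5d and Uty each held a single value (57.6 and 35.3 normalised counts), and in the other 4 they varied. Xist ran from 747 to 1185 over the table. With set means made equal, the levels of these genes do not give sex. The sets do differ in whether Kdm5d and Uty vary, and whether the sets differ in sex was not tested. In the same table Dnmt3a-WT library 2 had the widest deviations from its group (SD 0.0868, against 0.0523 to 0.0743 in the other 7 libraries), and the results it moves most are given with and without it. All 8 markers of excitatory neurons were above the filter in both tables, as were 7 of 8 markers of striatal projection neurons, so passing the filter does not by itself set cortex apart from striatum.

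**Figure D1:**
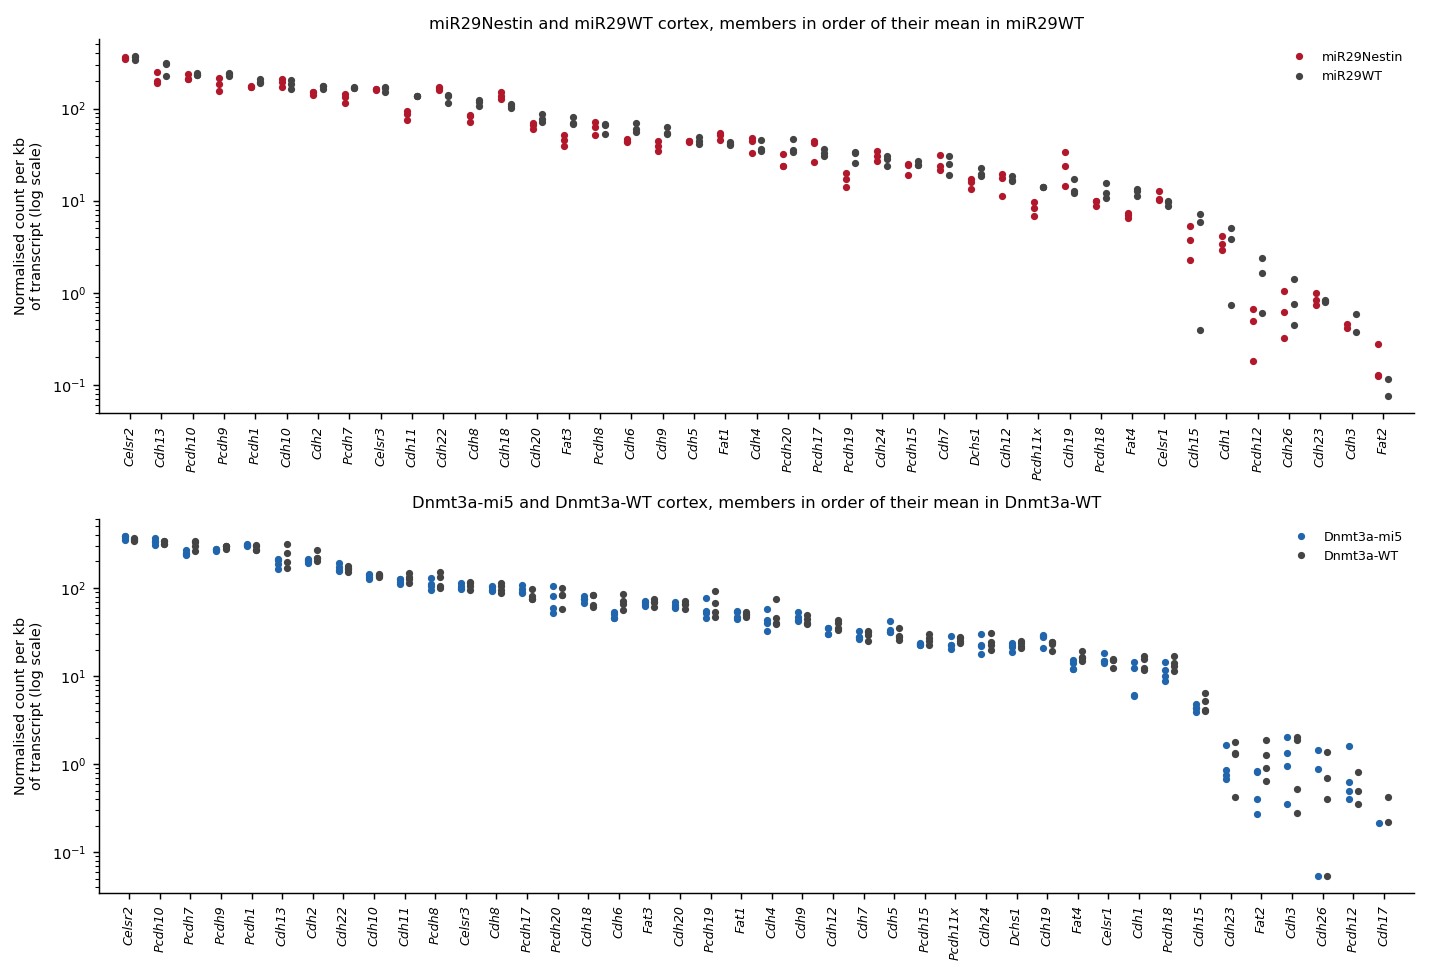
Normalised count per kb of the longest coding transcript (log axis) for each member, every library a point, in miR29Nestin and miR29WT cortex (top) and Dnmt3a-mi5 and Dnmt3a-WT cortex (bottom). Libraries at or near 0 are not drawn. Celsr2 has the highest mean in both wild-type groups, at 356 and 358 counts per kb.

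Levels were compared between genes only per kb of transcript. In miR29WT cortex Celsr2 stood highest at 356 ± 14.4 counts per kb (SD, n = 3), followed by the GPI-anchored T-cadherin Cdh13 at 280.5 ± 45.2 and the delta protocadherins Pcdh10 at 236.4 ± 6.47 and Pcdh9 at 236.3 ± 8.15. The order from Cdh13 to Pcdh9 lay within the summed SDs of neighbours. N-cadherin (Cdh2) was seventh at 172 ± 6.53 counts per kb and the endothelial VE-cadherin (Cdh5) stood at 45.0 ± 3.61. In Dnmt3a-WT cortex Celsr2 again led at 358 ± 12.0 counts per kb (n = 4), followed by Pcdh10 at 329 ± 17.4, Pcdh7 at 308 ± 34.8 and Pcdh9 at 294 ± 12.2, neighbours again within their summed SDs. The plot of levels per kb shows that the least abundant tested genes, Fat4 and Celsr1, still stood at 9.41 to 16.7 counts per kb in the wild-type groups.

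The filter on low values left 9 genes untested in both tables. Cdh16, known from kidney, was at 0 in all 14 libraries, and Cdh17, known from gut and liver, reached 1.47 normalised counts at most. The epithelial Cdh1, Cdh3 and Cdh26, the muscle cadherin Cdh15, the hair-cell tip-link cadherin Cdh23, the cerebellar granule cell gene Fat2 and the endothelial Pcdh12 had at most 74.2 normalised counts in any library. Pcdh18 was tested in the miR29 table only.

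In miR29Nestin cortex the family moved mostly downwards. Of 34 tested genes, 12 were called lower (35.3%) and 3 higher (8.82%) at an adjusted p under 0.05 by limma. The share among all 12014 tested genes was 10.0% lower and 9.02% higher. Before any cut, 24 of the 34 differences were below 0, with a median of -0.12 against -0.01 for all tested genes. The libraries of the 2 groups did not overlap for 20 of the 34 genes (4 higher, 16 lower), against 37.3% of all tested genes. Summed over the 43 genes, the libraries held 18287, 20258 and 20605 normalised counts in miR29Nestin cortex against 21491, 22313 and 22982 in miR29WT cortex, with no overlap. With 3 libraries a group, an exact permutation test of a single gene cannot go below p = 0.1, so the calls rest on limma's spread shared across genes. Of the 15 calls, 9 remained without miR29Nestin library 2 and 8 without miR29WT library 2, none of them higher. Each of the other 4 leave-outs kept 11 of the 15, and gave 11 to 13 calls with newly called genes included. With the replicate number as a block there were 18 calls, 4 higher and 14 lower, while calls over all genes were 3037 with the block and 2289 without it.

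**Figure D2:**
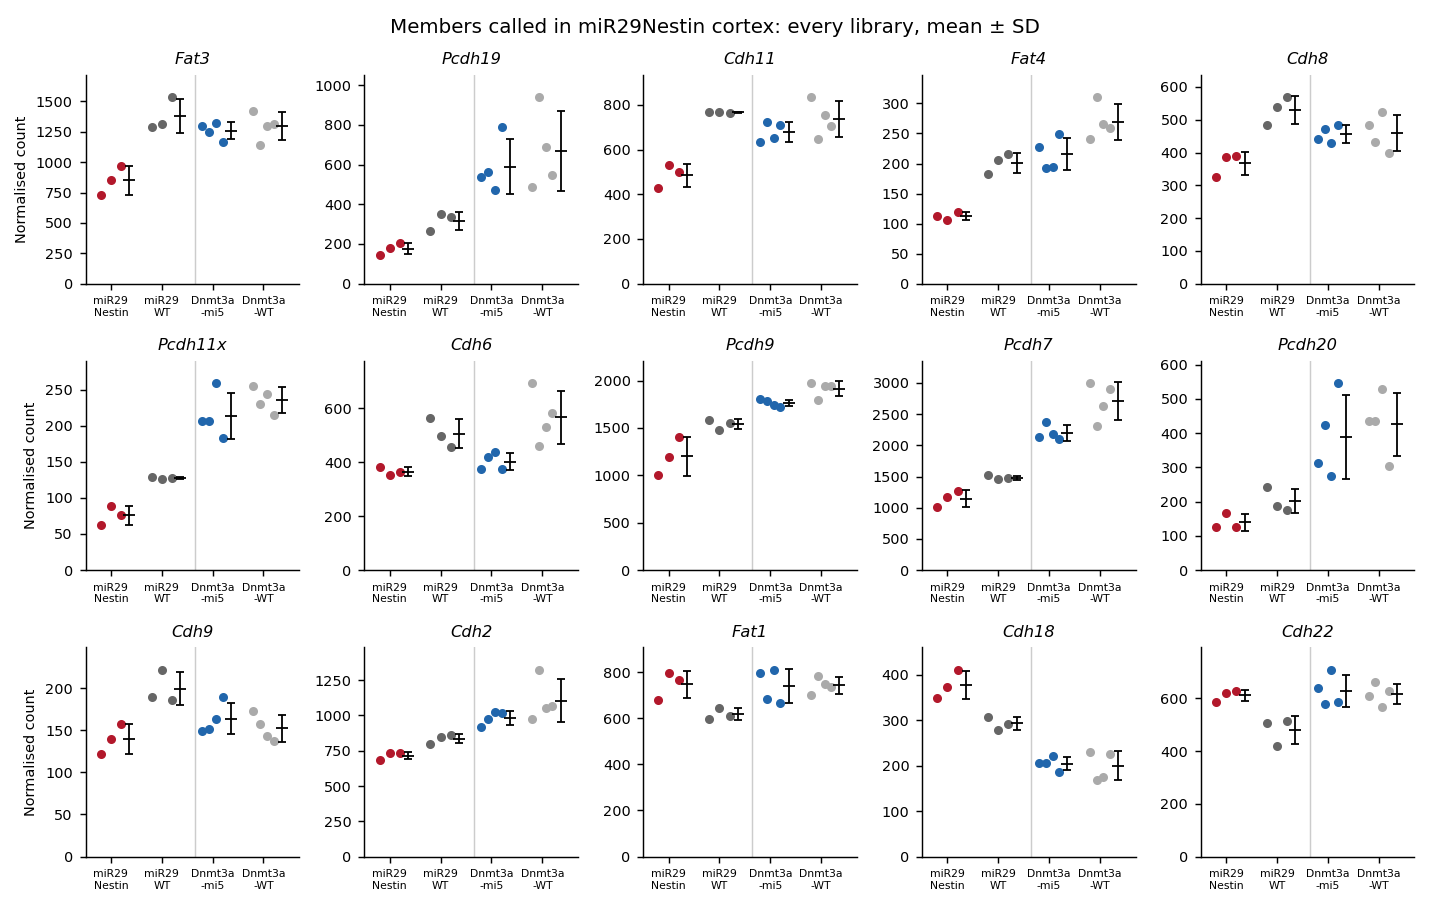
Normalised counts of the 15 genes called in miR29Nestin cortex, in order of their difference, with every library a point and the mean ± SD beside it, for miR29Nestin, miR29WT, Dnmt3a-mi5 and Dnmt3a-WT. Counts of the 2 tables left and right of the grey line were normalised separately. In the 12 genes called lower and the 3 called higher, no miR29Nestin library overlaps a miR29WT library.

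Among type I cadherins N-cadherin fell and R-cadherin did not pass the test. Cdh2, which holds together neuroepithelial junctions and synapses, had 685, 733 and 730.5 normalised counts in the 3 miR29Nestin libraries against 798.5, 844 and 859 in the 3 miR29WT libraries. Every miR29Nestin library was lower than every miR29WT library, but the difference was the smallest of the 12 falls (-0.18 ± 0.06 SE, adjusted p = 0.0437). Leaving out any 1 of the 6 libraries ended the call (adjusted p = 0.0527 to 0.149), as did a test without the filter on low values (0.0587) or without the mean-variance trend (0.0515). Cdh4, 1 of the genes with a seed match, had 212, 281 and 304 normalised counts in miR29Nestin libraries against 219, 292 and 234 in miR29WT libraries, a difference of 0.06 ± 0.10 with overlapping groups (adjusted p = 0.722).

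The type II cadherins split: 4 of 13 fell, 2 rose and 7 did not pass the test. The steepest fall was that of Cdh11, a cadherin also known from mesenchyme (chromosome 8, 102632095 to 102785642). It had 428, 529 and 499 normalised counts in miR29Nestin libraries against 766, 767 and 765 in miR29WT libraries. The mean was 485 ± 52.0 against 766 ± 0.64 (SD, n = 3 each), or 0.63 of the miR29WT mean, and the difference was -0.52 ± 0.07 (adjusted p = 0.000435), the smallest p of the 34 tested genes.

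Cdh8, a cadherin of cortical and thalamic neurons (chromosome 8, 99024471 to 99416471), had 325, 386 and 389 normalised counts in miR29Nestin libraries against 485, 537 and 569.5 in miR29WT libraries. The gap between the groups was wider than the range within either, and the difference was -0.39 ± 0.07 (adjusted p = 0.0038). Cdh6 (chromosome 15, 13028701 to 13173675) had 382, 351 and 363 normalised counts against 566, 496 and 458 in miR29WT libraries, a difference of -0.34 ± 0.07 (adjusted p = 0.0066). Cdh9, which shapes a class of hippocampal synapses, had 122, 139 and 158 normalised counts in miR29Nestin libraries against 189.9, 222 and 186 in miR29WT libraries, a difference of -0.28 ± 0.07 (adjusted p = 0.0204). Its call was lost without miR29Nestin library 1 (adjusted p = 0.0600), miR29Nestin library 2 (0.0637) or miR29WT library 2 (0.0886), whereas Cdh6, Cdh8 and Cdh11 kept theirs under each of the 16 alternatives run.

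The 2 type II cadherins that rose are neuronal. Cdh22 (chromosome 2, 165111507 to 165234853) had 586, 619 and 628 normalised counts in miR29Nestin libraries against 506, 421 and 515 in miR29WT libraries, a difference of 0.27 ± 0.07 (adjusted p = 0.0199). Cdh18 (chromosome 15, 22549022 to 23474418) had 348, 372 and 410.3 normalised counts in miR29Nestin libraries against 307, 279 and 291 in miR29WT libraries, a difference of 0.25 ± 0.06 (adjusted p = 0.0217). Neither gene carries a seed match. Without miR29Nestin library 2 the adjusted p was 0.0716 for Cdh22 and 0.0628 for Cdh18, and without miR29WT library 2 it was 0.0792 and 0.0862. For Cdh18 it was also 0.0632 without miR29Nestin library 3 and 0.0706 without miR29WT library 3.

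Of the 7 type II cadherins without a call, Cdh10 had the most counts, 654 ± 62.1 in miR29Nestin cortex and 631.5 ± 73.8 in miR29WT cortex (SD, n = 3 each), a difference of 0.04 ± 0.08. Cdh20 stood at 262 ± 18.6 and 316 ± 33.2, a difference of -0.18 ± 0.07 (adjusted p = 0.105). VE-cadherin, Cdh5, stood at 175 ± 3.77 and 179.6 ± 14.4 (-0.02 ± 0.06, adjusted p = 0.870), and none of the 8 endothelial markers was called in this comparison. Cdh12, with a seed match, differed by -0.05 ± 0.09, and Cdh7 and Cdh24 by 0.02 and 0.07. Cdh19, a cadherin of glial cells, was spread widely, with 56.8, 131 and 92.4 normalised counts in miR29Nestin libraries against 47.2, 49.2 and 67.3 in miR29WT libraries (0.29 ± 0.11, adjusted p = 0.103). It was called with the replicate number as a block (adjusted p = 0.0415) and without miR29Nestin library 1 (0.0133).

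T-cadherin, Cdh13, which lacks the catenin-binding tail, had 715, 749 and 955 normalised counts in miR29Nestin libraries against 865, 1170 and 1151 in miR29WT libraries. The highest miR29Nestin library exceeded the lowest miR29WT library, and the difference of -0.33 ± 0.11 did not pass the test (adjusted p = 0.0568). It was called with the replicate block (adjusted p = 0.00475), with a sex term (0.0193), with library medians made equal (0.0474), without miR29Nestin library 3 (0.0123) and without miR29WT library 1 (0.0120).

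All 4 delta-1 protocadherins were below miR29WT in every miR29Nestin library, and 3 of them fell. Members of this group have long cytoplasmic tails that bind protein phosphatase 1. Pcdh9 (chromosome 14, 93013410 to 93890679) had 999, 1195 and 1409 normalised counts in miR29Nestin libraries against 1586, 1482.5 and 1555 in miR29WT libraries, a difference of -0.33 ± 0.09 (adjusted p = 0.0286). Pcdh7 (chromosome 5, 57717967 to 58133230) had 1004, 1177 and 1262 normalised counts against 1518, 1452 and 1472 in miR29WT libraries, a difference of -0.33 ± 0.07 (adjusted p = 0.0089). The X-linked Pcdh11x (chromosome X, 120290259 to 120910619) had 62.5, 88.3 and 76.2 normalised counts against 128, 127 and 127 in miR29WT libraries, 0.59 of their mean, with a difference of -0.34 ± 0.07 (adjusted p = 0.0063). The miR29Nestin means of Pcdh9 and Pcdh7 were both 0.78 of the miR29WT means, and in each of the 3 genes the miR29WT libraries lay closer together than the miR29Nestin libraries. Pcdh1 had 953, 939 and 937 normalised counts in miR29Nestin libraries against 1025, 1041 and 1145 in miR29WT libraries (-0.15 ± 0.06, adjusted p = 0.0777). Pcdh9 lost its call without any of 5 libraries (adjusted p = 0.0525 to 0.0827) and kept it without miR29Nestin library 3. Summed over the group, miR29Nestin libraries held 3019, 3400 and 3684 normalised counts against 4257, 4103 and 4299 in miR29WT libraries.

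Of the 5 delta-2 protocadherins, which bind the actin-regulating WAVE complex, only Pcdh19 was called. Pcdh19, the gene mutated in a form of epilepsy in girls, lies on the X chromosome (133582860 to 133688987). It had 146, 177 and 205 normalised counts in miR29Nestin libraries against 264, 350.4 and 336 in miR29WT libraries. The miR29Nestin mean was 0.56 of the miR29WT mean (difference -0.52 ± 0.09, adjusted p = 0.00266), and the call held under each of the 16 alternatives run, the sex term included.

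The other 4 delta-2 genes differed less. Pcdh10 stood at 1811 ± 135 normalised counts in miR29Nestin cortex and 1946 ± 53.2 in miR29WT cortex (-0.10 ± 0.06, adjusted p = 0.277), Pcdh18 differed by -0.15 and Pcdh8, at 247 ± 37.9 and 249 ± 31.2, by -0.01. Pcdh17, with 2 seed matches the richest in sites, had 299, 479 and 505 normalised counts in miR29Nestin libraries against 351, 380.5 and 414 in miR29WT libraries (0.10 ± 0.12, adjusted p = 0.607). Its miR29Nestin libraries lay on either side of all miR29WT libraries, and without miR29Nestin library 1, the low one, it was called (0.27, adjusted p = 0.0249).

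Of the other protocadherins Pcdh20, a gene of only 6.65 kb (chromosome 14, 88464743 to 88471396), fell. It had 126, 167 and 125 normalised counts in miR29Nestin libraries against 243, 186 and 176 in miR29WT libraries, a difference of -0.29 ± 0.09 (adjusted p = 0.0423). Its call was lost with a sex term (adjusted p = 0.0535) and without miR29Nestin library 1 (0.107), miR29Nestin library 3 (0.0983), miR29WT library 1 (0.128) or miR29WT library 2 (0.0795). Pcdh15, the tip-link partner of Cdh23 and at 1550.4 kb the longest of these genes, differed by -0.10 ± 0.07 (adjusted p = 0.385).

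The Fat genes moved in opposite directions. Fat3, which orients dendrites in the retina (chromosome 9, 15910189 to 16501285), showed the largest difference of all 34 genes on the variance-stabilised log2 scale. It had 729, 855 and 969 normalised counts in miR29Nestin libraries against 1288, 1314 and 1536.5 in miR29WT libraries, 0.62 of their mean (-0.60 ± 0.09, adjusted p = 0.00103). By the ratio of means Pcdh19 (0.56), Fat4 (0.56) and Pcdh11x (0.59) fell further. Fat4, the receptor of the Dchs1 and Fat4 pair (chromosome 3, 38886940 to 39011985), had 113, 105 and 119 normalised counts against 183, 206 and 215 in miR29WT libraries, 0.56 of their mean (-0.45 ± 0.06, adjusted p = 0.00099). The range within either Fat4 group was narrower than the gap between them. Its ligand gene Dchs1 had 146, 173 and 186 normalised counts in miR29Nestin libraries against 198, 245 and 210.2 in miR29WT libraries. These groups did not overlap, and the difference of -0.22 ± 0.07 missed the threshold (adjusted p = 0.0676). Dchs1 was called with the replicate block (adjusted p = 0.0365), with a sex term (0.0149) and without miR29Nestin library 3 (0.0494).

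Fat1, a cadherin of radial glia and astrocytes that regulates actin (chromosome 8, 44935447 to 45052257), rose instead. It had 680.3, 796 and 767 normalised counts in miR29Nestin libraries against 595, 647 and 611 in miR29WT libraries (0.22 ± 0.06, adjusted p = 0.0352). The call was lost with a sex term (adjusted p = 0.0533) and without any of 5 libraries (0.0628 to 0.136), and was kept without miR29Nestin library 1.

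No Celsr gene was called. Celsr2 stood at 3744 ± 74.1 normalised counts in miR29Nestin cortex and 3771 ± 153 in miR29WT cortex (SD, n = 3 each), a difference of -0.01 ± 0.05 (adjusted p = 0.915). Celsr3, at 1856 ± 31.3 and 1885 ± 120, differed by -0.02 ± 0.06 (adjusted p = 0.848), and Celsr1, at 121 ± 15.3 and 102 ± 7.18, by 0.11 ± 0.07 (adjusted p = 0.286). The SE of Celsr2 was the smallest of the 34 tested genes (0.0476).

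**Figure D3:**
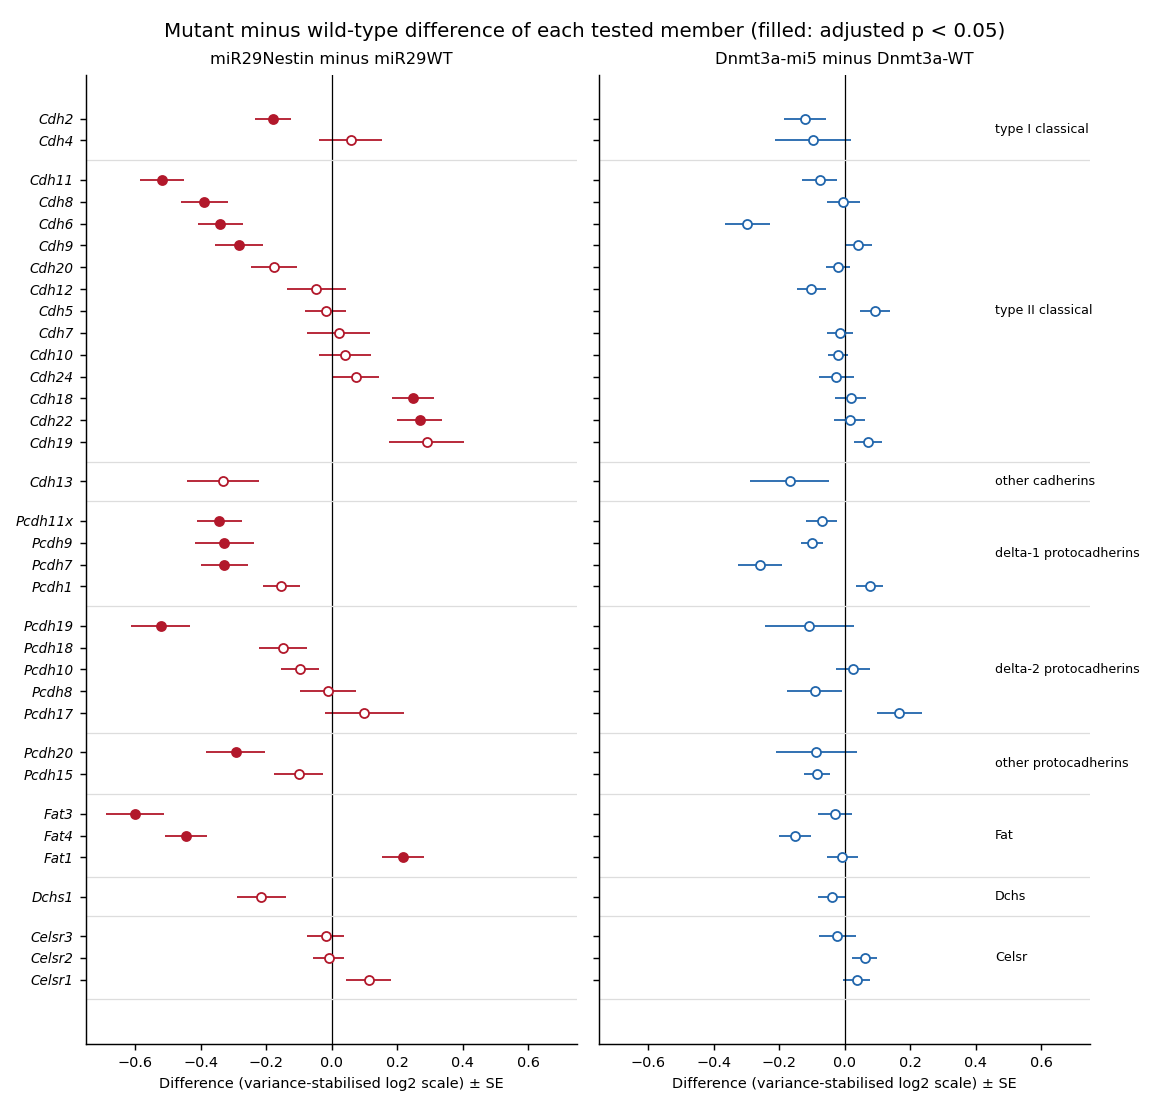
Difference (variance-stabilised log2 scale, ± SE) of each tested gene, by family, for miR29Nestin minus miR29WT (left) and Dnmt3a-mi5 minus Dnmt3a-WT (right); filled points have an adjusted p under 0.05. On the left 12 filled points lie below 0 and 3 above; on the right no point is filled, with Cdh6 (-0.30) and Pcdh7 (-0.26) farthest below 0.

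In Dnmt3a-mi5 cortex no gene of the family was called by limma. Of 33 tested genes, 0 passed in either direction, where 0.225% of all 10670 tested genes were called higher and 0.572% lower, so a count of 0 is near the background. At an unadjusted p under 0.05 there were 5 lower (Cdh6, Cdh12, Fat4, Pcdh7 and Pcdh9) and 1 higher (Pcdh17). These 6 are 18.2% of the 33 genes, against 19.0% of all tested genes (898 higher and 1127 lower). With both directions together this count too is near the background. By direction 15.2% of the family was lower and 3.03% higher, against 10.6% and 8.42% of all tested genes. Differences were below 0 for 23 of 33, with a median of -0.03 against 0.00 for all tested genes. The groups did not overlap for 1 of the 33 genes, against 12.0% of all tested genes. None of the 18 alternatives called a gene, except the 2 that left out Dnmt3a-WT library 2.

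Cdh6 was the gene whose groups did not overlap. It had 376, 419, 437 and 376 normalised counts in Dnmt3a-mi5 libraries against 692, 459.8, 530.5 and 583 in Dnmt3a-WT libraries. The mean was 402 ± 30.9 against 566 ± 98.0 (SD, n = 4 each), or 0.71 of the Dnmt3a-WT mean, close to the 0.72 seen in miR29Nestin cortex. The difference was -0.30 ± 0.07 (adjusted p = 0.0725). An exact 2-sided permutation test over all 70 assignments gave p = 0.0286, the smallest that 4 libraries against 4 allow. That test exchanged libraries freely between the 2 sets with equal means. Exchange within the sets alone would allow fewer assignments and a larger smallest p, so this p is not read as a call. Without Dnmt3a-WT library 2 the adjusted p was 0.0203.

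Pcdh7 had 2130 normalised counts in Dnmt3a-mi5 library 1 and 2375, 2187 and 2093 in the other 3, against 2992, 2309, 2635 and 2897 in Dnmt3a-WT libraries. Dnmt3a-WT library 2 was the low one of its group, within the Dnmt3a-mi5 range, and the difference was -0.26 ± 0.07 (adjusted p = 0.0816, or 0.0168 without that library). Pcdh9 had 1801, 1785, 1741 and 1726 normalised counts against 1971, 1797, 1946 and 1946 in Dnmt3a-WT libraries, again overlapping only through Dnmt3a-WT library 2 (-0.10 ± 0.03, adjusted p = 0.146). Fat4 had 228, 193, 195 and 248 normalised counts against 241, 311, 266 and 259 in Dnmt3a-WT libraries (-0.15 ± 0.05, adjusted p = 0.134).

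The remaining genes that fell in miR29Nestin cortex had these values in Dnmt3a-mi5 cortex, without a call. Cdh11 stood at 679 ± 43.7 normalised counts in Dnmt3a-mi5 cortex and 735 ± 80.1 in Dnmt3a-WT cortex (-0.08 ± 0.05), Fat3 at 1260 ± 68.5 and 1295 ± 117 (-0.03 ± 0.05) and Cdh8 at 456 ± 26.6 and 459.8 ± 54.9 (-0.0039 ± 0.05). Pcdh19 varied more within each group than between them, with 471 to 789 normalised counts in Dnmt3a-mi5 libraries and 488 to 940.2 in Dnmt3a-WT libraries (-0.11 ± 0.14), an error too wide to place the difference on either side of 0. Pcdh11x differed by -0.07 ± 0.05, Cdh2 by -0.12 ± 0.06, Cdh9 by 0.04 ± 0.04 and Pcdh20 by -0.09 ± 0.12. Without Dnmt3a-WT library 2 the difference was -0.12 for Cdh11, -0.08 for Fat3, -0.05 for Cdh2 and 0.02 for Pcdh19, none of them called. The 3 genes that rose in miR29Nestin cortex, Fat1, Cdh18 and Cdh22, differed by -0.0067, 0.02 and 0.02.

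Among the genes with a seed match, which the knock-in leaves under miR-29, Pcdh17 had 1104, 992, 1247 and 1032 normalised counts in Dnmt3a-mi5 libraries against 853, 1107, 939 and 853 in Dnmt3a-WT libraries. The groups overlapped through Dnmt3a-WT library 2 (0.17 ± 0.07, adjusted p = 0.222). Cdh4 differed by -0.10 ± 0.12 and Cdh12 by -0.10 ± 0.04 (adjusted p = 0.242). Of the most abundant genes, Celsr2 stood at 3973 ± 187 normalised counts in Dnmt3a-mi5 cortex and 3791 ± 127 in Dnmt3a-WT cortex (0.06 ± 0.04), Pcdh10 at 2769 ± 221 and 2710 ± 143 (0.03 ± 0.05) and Pcdh1 at 1658 ± 33.3 and 1556 ± 107 (0.08 ± 0.04). Cdh13 stood at 732 ± 78.4 and 880.0 ± 247 (-0.17 ± 0.12), Celsr3 at 1208 ± 91.6 and 1232 ± 114 (-0.02 ± 0.06), Pcdh8 at 439.7 ± 56.7 and 491 ± 101 (-0.09 ± 0.08), Pcdh15 at 210.2 ± 6.16 and 239 ± 29.8 (-0.08 ± 0.04) and Dchs1 at 232 ± 23.4 and 245 ± 18.8 (-0.04 ± 0.04). Dnmt3a-WT library 2 was the highest of its group for Cdh13, Cdh4 and Pcdh8 and the lowest for Celsr3, and without it the differences were -0.05, 0.02, -0.02 and -0.07. Pcdh17 then differed by 0.23 (adjusted p = 0.0628). The remaining tested genes, Cdh5, Cdh7, Cdh10, Cdh19, Cdh20, Cdh24 and Celsr1, differed by -0.03 to 0.09.

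Summed over the 43 genes, the Dnmt3a-mi5 libraries held 24990.5, 25189.6, 25349.9 and 25138 normalised counts, each below the Dnmt3a-WT libraries at 26159, 26549, 25948.5 and 26315. The sum is weighted towards genes with many counts, and these went in both directions. Pcdh7 had a mean of 2196 in Dnmt3a-mi5 cortex against 2708 in Dnmt3a-WT cortex. Celsr2 (3973 against 3791), Pcdh10 (2769 against 2710) and Pcdh1 (1658 against 1556) were higher. Groups of the sum did not overlap although the family's single genes passed no threshold. How often sums over other gene sets do so was not computed.

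Set side by side, the 33 genes tested in both tables had the same sign in 23 (69.7%), lower in both for 18 and higher in both for 5. The same sign was found for 58.8% of the 10610 genes that entered both tests. Across these genes the differences correlated at r = 0.52 and rho = 0.56 (n = 33 genes), against r = 0.28 over all genes. Of the 15 genes called in miR29Nestin cortex, 13 had the same sign in Dnmt3a-mi5 cortex. The same share was not computed over all genes called in miR29Nestin cortex, so this count is not set apart from called genes in general. Genes are not independent replicates, the tables differ in age, extraction and library kit, and the difference between the models was not tested.

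**Figure D4:**
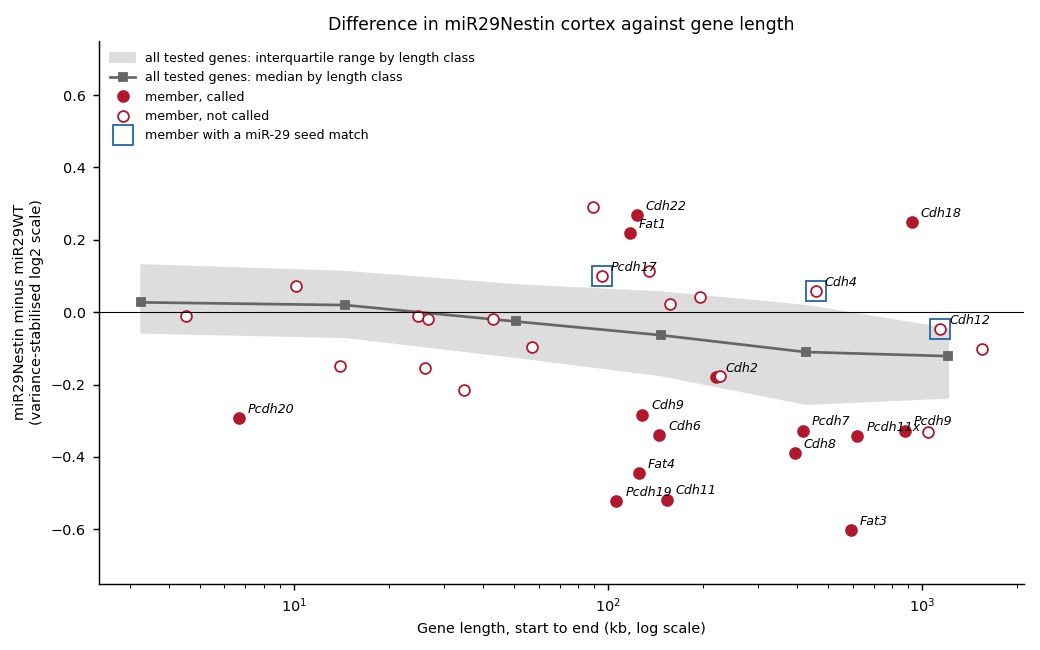
Difference in miR29Nestin minus miR29WT cortex (variance-stabilised log2 scale) against gene length (kb, log axis) for the 34 tested genes, with the median and interquartile range of all tested genes in 6 length classes. Boxes mark the 3 tested genes with a miR-29 seed match, all uncalled. Of the 12 genes called lower, 11 are over 100 kb.

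A property that the choice of genes did not use was gene length. The tested members had a median length of 132 kb from start to end, against 26.8 kb for all tested genes, and 22 of 34 (64.7%) were over 100 kb, against 16.5%. In miR29Nestin cortex 19.6% of all tested genes over 100 kb were called lower (382 of 1945), against 8.15% of the shorter ones. Of the 22 members over 100 kb 11 were called lower (50.0%) and 3 higher, with a median difference of -0.23 against -0.07 for all genes of that length. Of the 12 shorter members 1, Pcdh20, was called lower. By class, 6 of 12 members of 100 to 300 kb (50.0%) and 5 of 7 of 300 to 1000 kb (71.4%) were called lower, against 17.0% and 28.1% of all tested genes in these classes. The 3 members over 1000 kb, Cdh12, Cdh13 and Pcdh15, had no call. The plot of difference against gene length shows 11 of the 12 genes called lower below the band of all genes, Cdh2 at its edge, and the 3 called higher above it. In Dnmt3a-mi5 cortex the 22 members over 100 kb had a median difference of -0.07, against -0.02 for all tested genes of that length.

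None of the 15 called genes carries a seed match. Among all tested genes with a match 17.2% were called higher in miR29Nestin cortex (331 of 1925), against 7.40% of those without. The 3 tested members with a match, Cdh4, Cdh12 and Pcdh17, differed by -0.05 to 0.10. No match says only that these letters are not in the longest annotated 3′ UTR of the gene.

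Exons of several members overlap annotated antisense transcripts, among them Pcdh19, Fat4, Cdh8, Pcdh7, Cdh9 and Fat1 of the called genes. Exons of the uncalled Cdh12 and Celsr3 overlap annotated genes on the same strand (Gm49685 and Gm23156), which strand alone does not separate. The libraries were stranded, but how strand entered the counting is not given in the sources used here, so reads of these pairs may not be fully apart.

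Some cell type marker lists also differed between the groups in the same libraries, in both directions, and others overlapped. In miR29Nestin cortex 4 of 8 excitatory neuron markers were called lower, and the summed level of that list was 20891 to 23163 normalised counts against 26397 to 27599 in miR29WT cortex. The astrocyte list summed to 17456 to 18082 against 15690.2 to 16296 (4 of 8 higher, 1 lower), the oligodendrocyte precursor list to 4521 to 4936 against 3830 to 4270 (2 of 6 higher) and the leptomeningeal fibroblast list to 1603 to 2127 against 777 to 1313 (4 of 7 higher). Most of the leptomeningeal sum in miR29Nestin libraries was Igf2, with a mean of 1162 against 585 in miR29WT libraries. Dcn and Slc22a6 of the same list differed by -0.07 and 0.04 without a call. The striatal projection neuron list varied widely within both groups, from 6143 to 14160.1 in miR29Nestin libraries and 7628 to 12989 in miR29WT libraries. No marker of any list was at 0 throughout. In Dnmt3a-mi5 cortex the excitatory neuron list was 20686 to 22923 against 23372 to 23936 in Dnmt3a-WT cortex, with 0 of 8 called, and the microglia list 3556 to 3999 against 4059 to 4268, with 2 of 7 lower. The endothelium list was higher, at 1343 to 1531 in Dnmt3a-mi5 libraries against 1164 to 1339.8 in Dnmt3a-WT libraries, with 1 of 6 called higher. The choroid plexus list ran from 309 to 13954 in Dnmt3a-mi5 and 120.4 to 11882 in Dnmt3a-WT libraries. The striatal projection neuron list was 6705 to 14109 in Dnmt3a-mi5 libraries against 5641 to 9797 in Dnmt3a-WT libraries, with overlap. All 7 tested striatal markers had differences above 0 (0.32 to 0.50). By limma 4 of these 7 had an unadjusted p under 0.05, and 0 were called. The part of cell composition in the differences above was not tested, and in bulk tissue fewer cells of a type and less RNA per cell cannot be told apart.

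Genes that act with cadherins were called in both directions. Of 43 tested partners in 6 lists, 8 were called higher and 8 lower in miR29Nestin cortex, 18.6% each, against 9.02% and 10.0% of all tested genes. The difference from the family was not tested. Among 10 catenins and actin linkers, p120-catenin (Ctnnd1), which stabilises cadherins at the membrane, rose to 1675, 1631 and 1651 normalised counts in miR29Nestin libraries, against 1292, 1401 and 1282 in miR29WT libraries (0.28 ± 0.05, adjusted p = 0.00378). Vinculin (Vcl) rose by 0.22, while Pkp4 and afadin (Afdn) fell by 0.20 and 0.28 on the log2 scale. Beta-catenin (Ctnnb1) differed by 0.08 ± 0.06 (adjusted p = 0.378).

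Of 9 planar polarity partners of the Celsr proteins, Fzd3, a receptor that acts with Celsr2 and Celsr3 in axon tracts, fell the most. It had 782, 950.1 and 1073 normalised counts in miR29Nestin libraries against 1380.1, 1603 and 1503 in miR29WT libraries (-0.59 ± 0.09, adjusted p = 0.0012). Vangl2 fell by 0.24 on the log2 scale, and Prickle1 and Dvl3 rose by 0.17 and 0.21. The Celsr genes themselves were not called.

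Of 8 Fat and Dchs partners only Wwtr1, the TAZ coactivator, was called (0.28, adjusted p = 0.0336). Of 8 WAVE complex genes Abi2 fell to 1510.2, 1692 and 1868 normalised counts in miR29Nestin libraries, against 2153, 2382 and 2276 in miR29WT libraries (-0.39 ± 0.07, adjusted p = 0.00339), Nckap1 fell by 0.25 on the log2 scale and Wasf3 rose by 0.22. Of 6 genes of cadherin shedding and cleavage, Adam10, the main sheddase of N-cadherin, fell by 0.32 on the log2 scale, and the gamma-secretase genes Aph1a and Psen2 rose by 0.29 and 0.24. Of the cadherin repressors only Zeb1 and Zeb2 were above the filter, and Zeb2 fell by 0.46 on the log2 scale (adjusted p = 0.00777), with 729, 1013 and 1042 normalised counts in miR29Nestin libraries against 1340.2, 1324 and 1324 in miR29WT libraries.

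In Dnmt3a-mi5 cortex 0 of 41 tested partners were called by limma, with 3 higher (7.32%) and 10 lower (24.4%) at an unadjusted p under 0.05, against 8.42% and 10.6% of all tested genes. The groups did not overlap for 9 of the 41 partners (22.0%), against 12.0% of all tested genes. Fzd3 had 1655, 1511, 1733 and 1501 normalised counts in Dnmt3a-mi5 libraries against 2007, 1850.3, 1807 and 1977 in Dnmt3a-WT libraries (-0.21 ± 0.05, adjusted p = 0.0633), without overlap. Abi2 (-0.13 ± 0.03, adjusted p = 0.0660) and Zeb2 (-0.34 ± 0.08, adjusted p = 0.0794) were likewise lower in every Dnmt3a-mi5 library than in any Dnmt3a-WT library, as was Adam10 (-0.10 ± 0.03, adjusted p = 0.112). Ctnnd1 was higher in every Dnmt3a-mi5 library, with 937, 929.8, 939 and 898 normalised counts against 866, 824, 838 and 879 in Dnmt3a-WT libraries (0.09 ± 0.03, adjusted p = 0.132).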

How the data were processed

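Per the labels' protocols, all libraries were stranded, with Qiagen extraction and Illumina library reagents for the miR29 mice and Zymo extraction and KAPA library reagents for the Dnmt3a mice. Tools named in the submitters' processing notes are STAR, Salmon, cutadapt and DESeq2, and builds hg19 and mm9, all without roles. The authors deposited 1 table per model of variance-stabilised log2 values for 24444 genes, and 0 columns of per-sample values were left unused. Columns of the Dnmt3a table repeat their names, so its libraries are numbered by column order within a group.

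Normalised counts were recovered by inverting the transformation, using the value that stands for 0 counts in each table. After scaling by the step of 1 read, 88.0 to 90.6% of values between 0.05 and 12 normalised counts in the miR29 libraries lay within 0.05 of a whole read, while counts of the Dnmt3a table, in which 2546 genes have values below the zero level, are approximate. The equal means of 2 sets of libraries held within 5.5e-09. Tables were tested separately with limma 3.58.1 (R 4.3.3; mean-variance trend, Benjamini-Hochberg adjustment over all tested genes) on the deposited log2 values. Genes with a mean of at least 1 log2 unit above the lowest value entered, about 48.0 and 80.1 normalised counts, and called means an adjusted p under 0.05. The fit was tested on simulated data. Python 3.11.15 and pandas 2.3.3 made the summaries. GENCODE M21 (GRCm38) gave gene lengths, UTRs and coordinates, matched by symbol for all 43 genes.

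Deviations of same-numbered miR29 libraries correlated at 0.34, 0.20 and 0.19, and those of differently numbered ones at -0.33 to 0.18. The lowest same-numbered value is close to the highest of the others, and the labels do not say that the numbers pair mice. Pairing is therefore not established, and a fit with the replicate number as a block was run as an alternative only. Members, families, partner and marker lists were chosen with earlier results of these data known. Called genes are given per library, up to 3 uncalled genes per family by level, and up to 4 called partners per list by p. Genes mentioned beyond this rule were chosen after their values were seen.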

Additional observations from a re-analysis of the deposited data

Results flagged for a closer look

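Each gene of the family tested in the Dnmt3a table was examined in both groups of 4 libraries, 66 in all, and 3 had a library far from the other 3, and chance alone flags about 1 in 20 such groups. Cdh19 stood at 80.6 normalised counts in Dnmt3a-mi5 library 4, against 109 to 114 in the other Dnmt3a-mi5 libraries. Celsr1 stood at 133 in Dnmt3a-WT library 2, against 166 to 169.9 in the other Dnmt3a-WT libraries. Pcdh9 stood at 1797 in Dnmt3a-WT library 2, against 1946 to 1971 in the other Dnmt3a-WT libraries.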

How the results depend on the processing

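In the miR29 comparison 15 genes were called, and 8 of them (Cdh6, Cdh8, Cdh11, Fat3, Fat4, Pcdh7, Pcdh11x and Pcdh19) stayed called under each of the 16 alternatives, where tested. A stricter filter left Cdh9, Fat4, Pcdh11x and Pcdh20 untested. Leaving out 1 library gave 8 to 13 calls (0 to 5 of them higher), lowest without miR29WT library 2 (8) and miR29Nestin library 2 (9), and 1384 to 2313 calls over all genes, against 2289 with all libraries. With the replicate block 18 genes of the family were called, 4 higher and 14 lower, the added ones being Cdh13, Cdh19 and Dchs1, and it changed no other call of the family. No called gene changed sign under any alternative run.

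A set term here is a term for the 2 sets of libraries with equal means. In the Dnmt3a comparison the count of 0 became 2 (Cdh6 and Pcdh7, both lower) without Dnmt3a-WT library 2, also with the set term, an alternative chosen after seeing the data, and was 0 to 2 over the leave-outs. Calls over all genes were 85, 25 with no filter, 13 with the set term and 9 to 176 over the leave-outs, highest without Dnmt3a-WT library 2. No paired analysis was possible for this table because its columns repeat their replicate names.

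Uncalled differences near 0 changed sign, and the cause was not tested. Over the leave-outs of the miR29 table, Cdh10 ranged from -0.028 to 0.11, Cdh12 from -0.12 to 0.058, Cdh4 from -0.0094 to 0.15, Cdh5 from -0.050 to 0.015, Celsr2 from -0.040 to 0.014, Celsr3 from -0.067 to 0.014 and Pcdh8 from -0.078 to 0.062. With quantile normalisation Celsr2 was 0.011 and Celsr3 0.020, and with a sex term Cdh4 was -0.029. Over the leave-outs of the Dnmt3a table, Cdh18 ranged from -0.016 to 0.050, Cdh20 from -0.047 to 0.00018, Cdh22 from -0.024 to 0.042, Cdh4 from -0.18 to 0.021, Cdh8 from -0.043 to 0.036, Celsr3 from -0.068 to 0.010, Fat1 from -0.039 to 0.026, Fat3 from -0.076 to 0.0075, Pcdh10 from -0.016 to 0.066 and Pcdh19 from -0.21 to 0.017. With the set term and Dnmt3a-WT library 2 left out, Cdh18 was -0.023, Cdh4 0.045, Celsr1 -0.0026, Fat1 0.016 and Pcdh19 0.042. Depth limits the low genes most, and it is unknown for the Dnmt3a table.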
